A study of Rattus norvegicus with 24 samples.

Results

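The enzymes described here take skeletal muscle glycogen and glucose to lactate. They were chosen by gene symbol as Pygm, Pfkm, Aldoa, Tpi1, Gapdh, Pgk1, Pgam2, Eno3, Pkm and Ldha, in the order of the pathway. Of these 10 genes, 9 had a row among the 10851 genes of the count table, and Gapdh was not analysed here. All 9 passed the filter on low counts, as did every gene of the table.

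Poly(A) RNA of the medial gastrocnemius, a calf muscle, was sequenced in 24 male Wistar rats, with 6 rats in each of 4 groups and 1 rat in each library. Saline-Sedentary (Sed) rats received saline and did not train, and Saline-Exercised (Ex) rats received saline and ran on a treadmill. Monocrotaline-Sedentary (CC-Sed) rats received a single dose of monocrotaline, a plant alkaloid that injures the lung vessels and leads to right heart failure, and did not train. Monocrotaline-Exercised (CC-Ex) rats received monocrotaline and trained, and CC stands for the cardiac cachexia, a wasting of body and muscle, that followed. The ages of the rats were not given in the sources used here. Rats that died, or that showed no right ventricular hypertrophy, were not part of the CC groups, so both hold survivors with overt disease. The total count per rat ran from 37816239 to 50350554.

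Glycogen breakdown and glycolysis make ATP from stored sugar without oxygen, and fast muscle fibres depend on them during short, hard contractions. Glycogen phosphorylase, encoded by Pygm, frees glucose phosphate from glycogen. Phosphofructokinase (Pfkm) commits the sugar to glycolysis, aldolase (Aldoa) splits it, and triose phosphate isomerase (Tpi1) brings both pieces into 1 form. In the later part of the pathway, phosphoglycerate kinase (Pgk1) and pyruvate kinase (Pkm) make ATP, with phosphoglycerate mutase (Pgam2) and enolase (Eno3) acting between them, and lactate dehydrogenase A (Ldha) turns pyruvate into lactate. Pygm, Pfkm, Pgam2 and Eno3 encode forms typical of muscle, whereas the other genes are used more widely.

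The promoters of 3 of the enzymes are shown as background, namely those with the most matches to the letters marked. Whether these matches bear on the enzymes' levels was not tested. Each line gives the 250 bases before the start of the gene, on its own strand, from RefSeq on build GRCr8. Capitals mark CANNTG, the E-box bound by myogenic factors, in Pgam2 and Pygm, and ACGTG on either strand, the core bound by hypoxia inducible factors, in Ldha.
Pgam2, chr14:84897875-84898124, minus strand: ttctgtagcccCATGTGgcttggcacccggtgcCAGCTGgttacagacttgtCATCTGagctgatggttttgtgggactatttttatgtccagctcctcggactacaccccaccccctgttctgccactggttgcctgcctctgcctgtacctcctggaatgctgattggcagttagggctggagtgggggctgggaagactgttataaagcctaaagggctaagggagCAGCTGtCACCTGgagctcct
Pygm, chr1:213119555-213119804, plus strand: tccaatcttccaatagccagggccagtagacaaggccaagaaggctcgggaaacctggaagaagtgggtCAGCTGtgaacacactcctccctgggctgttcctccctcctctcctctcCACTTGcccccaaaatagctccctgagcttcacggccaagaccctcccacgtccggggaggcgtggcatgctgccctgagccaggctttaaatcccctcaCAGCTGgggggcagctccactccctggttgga
Ldha, chr1:106507842-106508091, plus strand: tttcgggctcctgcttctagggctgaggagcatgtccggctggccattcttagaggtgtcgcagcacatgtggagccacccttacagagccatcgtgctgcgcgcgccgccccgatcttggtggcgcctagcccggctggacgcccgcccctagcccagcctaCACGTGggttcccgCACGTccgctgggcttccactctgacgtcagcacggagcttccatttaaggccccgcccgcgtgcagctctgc
The Pgam2 window held 5 E-boxes and the Pygm and Ldha windows 3 each. The windows of Eno3 and Tpi1 held 1, those of Pfkm and Pkm 0, and those of Aldoa 0 or 1. The Ldha window held 3 matches to ACGTG, of which a pair overlap on opposite strands in CACGTG, which is also an E-box. RefSeq gave promoters for 8 of the 9 enzymes and 10 windows in all, since Aldoa has 3 starts. CANNTG occurred in 6 of these 10 windows and in 65.5% of 33469 promoters of the same length, and ACGTG in 4 of 10 and in 16.6%. These are matches of letters only, and binding was not measured. Pgk1 had no entry.

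Levels are given as CPM, counts divided by the size of the library, after TMM scaling, a correction for differences in the make-up of the libraries. They are not divided by transcript length, so levels are compared between rats for the same gene and never between genes. A log2 fold change (log2FC) is the difference fitted by edgeR's quasi-likelihood test on all 24 rats. A gene counts as called at an adjusted p under 0.05 after Benjamini-Hochberg adjustment over 10851 genes, and every adjusted p here comes from that test unless another tool is named. In a bulk sample, fewer fibres of a kind and less RNA per fibre cannot be told apart. Pseudogenes are named in RefSeq for Aldoa, Tpi1, Pgk1, Pkm and Ldha, from 3 for Tpi1 to 30 for Ldha, so these counts are uncertain where near copies share reads. RefSeq names none for Pygm, Pfkm, Pgam2 and Eno3.

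The first question was what monocrotaline did to the pathway in sedentary rats. All 9 enzymes had a log2FC below 0 in CC-Sed against Sed, from -0.06 for Pfkm to -0.89 for Pgam2, and none was called, where 6.46% of all genes were called. An unadjusted p under 0.05 was reached by 2 of the 9 enzymes, Pgam2 and Pgk1, and by 28.4% of all genes. The median log2FC of the enzymes was -0.49, against 0.02 over all genes, and 47.5% of all genes were below 0. The enzymes' counts rose and fell together across rats, so these 9 directions do not stand for 9 separate observations.

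At the entry to the pathway the fitted differences were small beside their errors. The level of Pygm ran from 8390 to 13975 CPM in Sed, with a median of 10306, and from 5115 to 15037 in CC-Sed, with a median of 7298. The CC-Sed rats thus reached below the lowest and above the highest Sed rat, with 4 of 6 below all Sed rats, and the log2FC was -0.22 ± 0.25 (SE, n = 6 per group, adjusted p = 0.573). Pfkm ran from 2373 to 3819 CPM in Sed, with a median of 2937, and from 1699 to 4255 in CC-Sed, with a median of 2691. Its log2FC of -0.06 had a 95% interval from -0.51 to 0.38. Aldoa ran from 9394 to 15565 CPM in Sed, with a median of 12589, and from 7411 to 17402 in CC-Sed, with a median of 10498. Its log2FC was -0.18, with an interval from -0.62 to 0.27. The intervals of all 3 genes hold changes of either sign.

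The middle and lower part of the pathway lay lower in CC-Sed. Tpi1 ran from 1780 to 2328 CPM in Sed, with a median of 2156, and from 798 to 1960 in CC-Sed, with a median of 1601. Every CC-Sed rat (6 of 6) fell short of the middle of the Sed group and 3 were below every Sed rat, yet the log2FC of -0.49 ± 0.24 was not called (adjusted p = 0.189). Pgk1 ran from 952 to 1357 CPM in Sed, with a median of 1195, and from 383 to 1176 in CC-Sed, with a median of 824. Again 6 of 6 fell short of it and 3 were below all Sed rats (log2FC -0.57 ± 0.27, adjusted p = 0.172). Eno3 ran from 4941 to 7060 CPM in Sed, with a median of 6065, and from 2424 to 6492 in CC-Sed, with a median of 4601 (log2FC -0.45, adjusted p = 0.246). Pkm ran from 2559 to 4166 CPM in Sed, with a median of 3152, and from 1103 to 3594 in CC-Sed, with a median of 2242 (log2FC -0.49, adjusted p = 0.265). Each of these genes had 3 CC-Sed rats below every Sed rat and the others within the Sed range. Ldha ran from 1832 to 2645 CPM in Sed, with a median of 2337, and from 785 to 2529 in CC-Sed, with a median of 1583 (log2FC -0.50, adjusted p = 0.229). In Ldha 4 of 6 CC-Sed rats were below all Sed rats.

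Pgam2 had the lowest log2FC of the 9. Its level ran from 1501 to 2326 CPM in Sed, with a median of 2097, and from 403 to 1834 in CC-Sed, with a median of 983. None of the 6 CC-Sed rats reached the middle of the Sed group, and 4 were below every Sed rat. The log2FC was -0.89 ± 0.38 (SE), with a 95% interval from -1.68 to -0.10, and an adjusted p of 0.137. With limma-voom and sample quality weights, Pgam2 was called in this comparison (log2FC -1.08, adjusted p = 0.0117), and it was the only enzyme to be so there. For none of the 9 enzymes did CC-Sed and Sed fail to overlap, whereas 3.61% of all genes had groups that did not overlap.

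**Figure D1:**
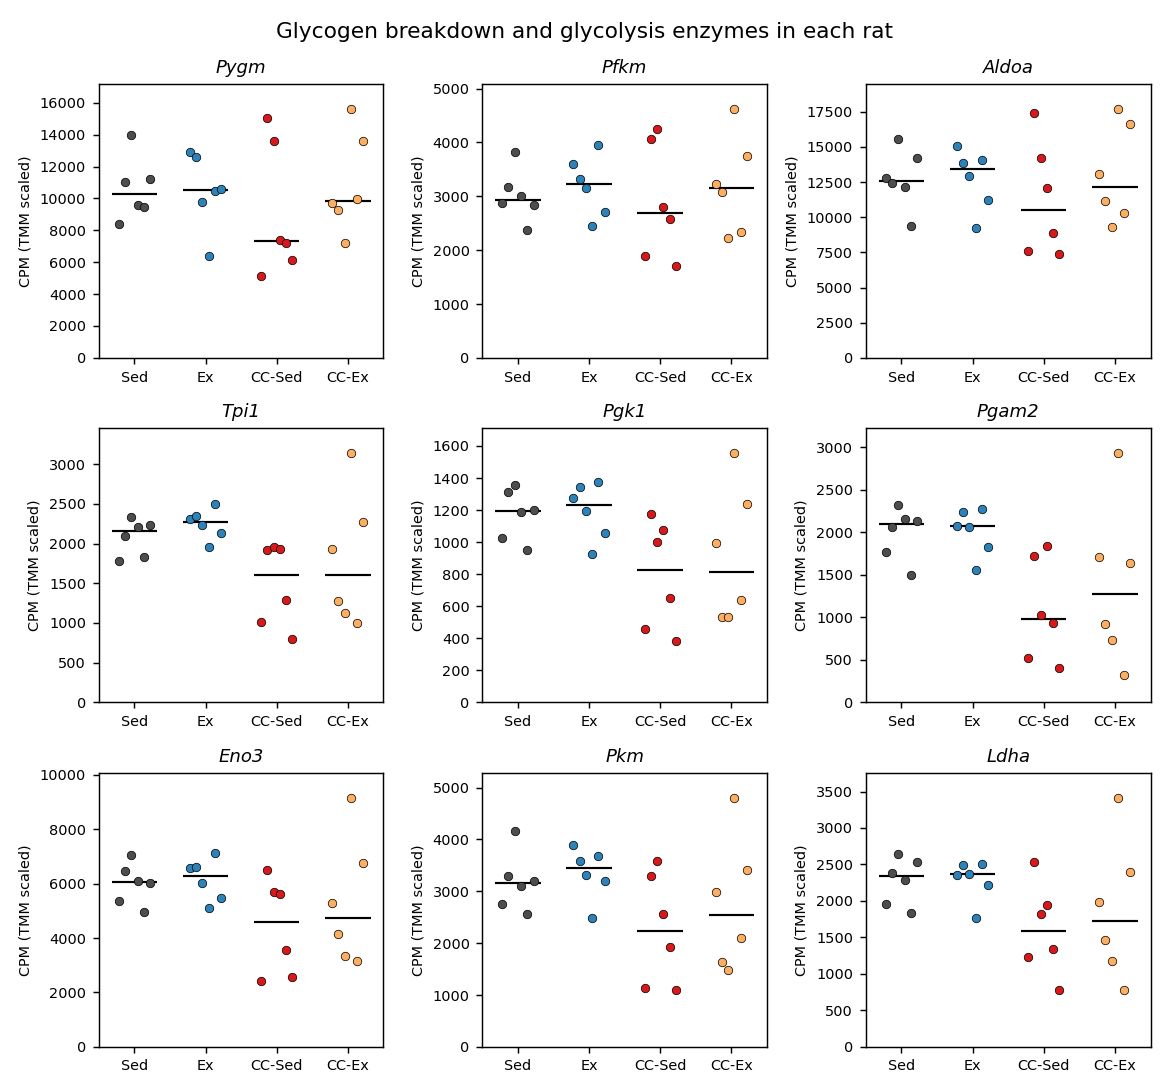
Level of each of the 9 enzymes in each rat, in CPM after TMM scaling on a linear axis that starts at 0, by group. Points are rats (6 per group) and bars are group medians; for Pgam2 the CC-Sed rats ran from 403 to 1834 CPM and the CC-Ex rats from 326 to 2933 CPM, against 1501 to 2326 CPM in Sed.

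The same comparison was made in trained rats, CC-Ex against Ex. None of the 9 enzymes was called, where 0.995% of all genes were called, and none had an unadjusted p under 0.05, which 22.6% of all genes had. The log2FC was below 0 for 6 of 9 and for 48.4% of all genes, with a median of -0.29 against 0.01 over all genes. These values depended on single rats. Without CC-Ex replicate 4 all 9 log2FCs were below 0, with a median of -0.53 and Pgam2 at -0.91. Of the 9 enzymes 4 then had an unadjusted p under 0.05, and none was called (smallest adjusted p = 0.109). Without CC-Ex replicate 5, 6 of 9 were below 0 and 0 had an unadjusted p under 0.05 (smallest adjusted p = 0.674). Over the 24 fits that each left out a rat, the log2FC of Pgam2 ran from -0.91 to -0.35. The groups overlapped for every enzyme, and failed to overlap for 1.08% of all genes. Pygm, Pfkm and Aldoa had log2FCs of 0.06, 0.01 and 0.03. The level of Pygm lay between 6396 and 12940 CPM in Ex and between 7202 and 15634 in CC-Ex, with medians of 10536 and 9835. For Pfkm the medians were 3235 CPM in Ex and 3156 in CC-Ex, and for Aldoa 13393 and 12113. The intervals of all 3 log2FCs spanned 0, the widest from -0.46 to 0.58 for Pygm.

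From Tpi1 on, the CC-Ex medians lay below those of Ex, with a wide range. Pgam2 ran from 1559 to 2273 CPM in Ex, with a median of 2073, and from 326 to 2933 in CC-Ex, with a median of 1279. Of the 6 CC-Ex rats, 3 were below all Ex rats and 1 was above all of them, and the log2FC was -0.54 ± 0.38 (adjusted p = 0.380). Pgk1 lay between 927 and 1377 CPM in Ex and between 535 and 1556 in CC-Ex, with medians of 1234 and 815 (log2FC -0.38, adjusted p = 0.383). Tpi1 lay between 1962 and 2492 CPM in Ex and between 1005 and 3139 in CC-Ex, with medians of 2268 and 1605 (log2FC -0.32, adjusted p = 0.412). For both genes 4 of 6 CC-Ex rats were below the Ex median and 1 was above every Ex rat. Pkm had a log2FC of -0.30, with medians of 3454 CPM in Ex and 2553 in CC-Ex. Ldha had a log2FC of -0.29, with medians of 2367 and 1722 CPM, and Eno3 one of -0.21, with medians of 6297 and 4724 CPM.

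The mean of both monocrotaline effects uses all 24 rats and has the smallest errors. None of the 9 enzymes was called, where 27.8% of all genes were, and 3 of 9 had an unadjusted p under 0.05, as did 42.4% of all genes. All 9 log2FCs were below 0, as were 48.1% of all genes. Pgam2 lay nearest to the threshold, with a log2FC of -0.72 ± 0.27 (95% interval from -1.27 to -0.16, adjusted p = 0.0509). Pgk1 followed with -0.48 ± 0.19 (adjusted p = 0.0648) and Tpi1 with -0.41 ± 0.17 (adjusted p = 0.0773). For Ldha, Pkm and Eno3 the log2FCs were -0.40, -0.39 and -0.33, with adjusted p from 0.123 to 0.165. For Pygm, Aldoa and Pfkm they were -0.08, -0.07 and -0.03, and the intervals reached no lower than -0.45. The effects of the first 3 enzymes of the pathway were thus the smallest in size of the 9, although differences between enzymes were not tested.

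These counts were close to the threshold and moved with the tool and with single rats. DESeq2, the tool of the study, called 2 of the 9 enzymes in the mean effect, Pgam2 (adjusted p = 0.0301) and Pgk1 (adjusted p = 0.0495), and limma-voom with quality weights called 6. Without CC-Ex replicate 4 the quasi-likelihood test called 6 as well, namely Tpi1, Pgk1, Pgam2, Eno3, Pkm and Ldha, with Pgam2 at -0.90 (adjusted p = 0.0104). Without CC-Sed replicate 2, or without CC-Sed replicate 4, it called 2, Pgam2 and Pgk1, and without CC-Ex replicate 1 it called Pgam2. Pygm, Pfkm and Aldoa were called under none of the alternatives tried. The study's rule for DEGs, which adds a log2FC of at least 1 in size, was met with edgeR by 0 of 9 enzymes, and by 1.87% of genes in CC-Sed against Sed, 0.525% in CC-Ex against Ex and 2.88% in the mean effect. With limma-voom, Pgam2 met it in CC-Sed against Sed.

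**Figure D2:**
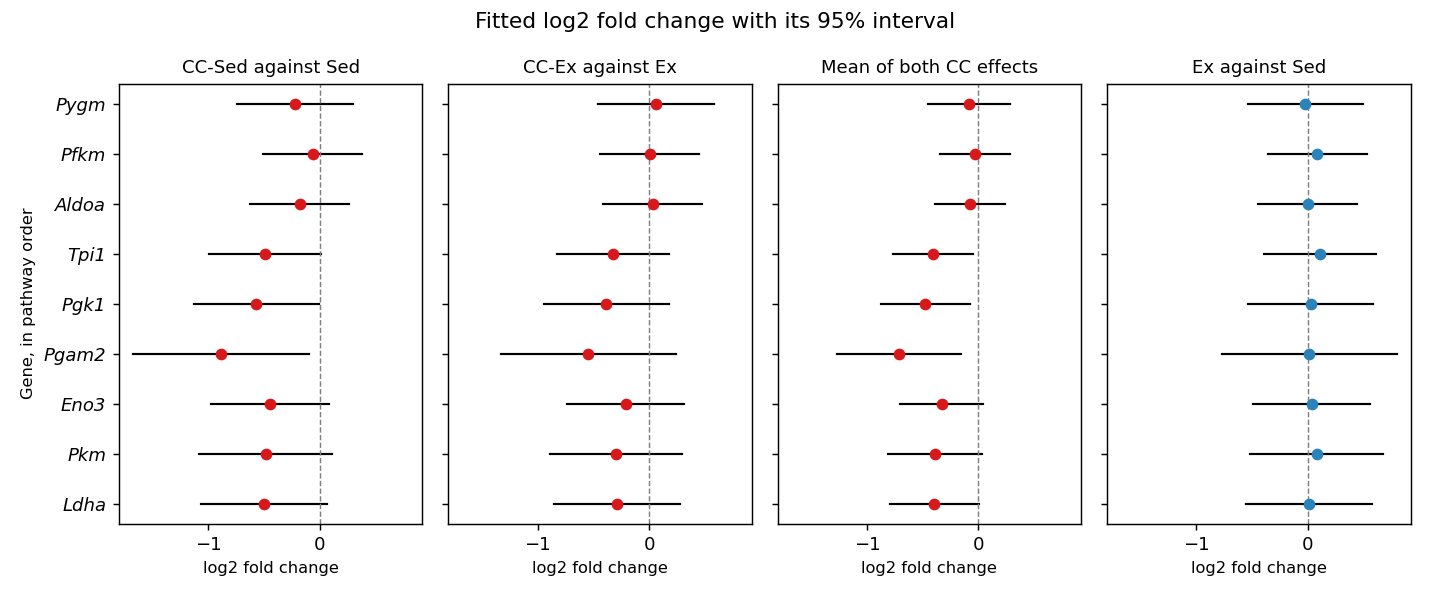
Fitted log2FC (points) of each enzyme with its 95% interval (lines), in 4 comparisons, with the enzymes in pathway order from top to bottom and a dashed line at 0. Pgam2 has the lowest estimate in the first 3 panels (-0.89, -0.54 and -0.72), and every interval in the training panel, Ex against Sed, spans 0.

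Training was compared within saline and within monocrotaline rats. In Ex against Sed the log2FCs ran from -0.02 for Pygm to 0.11 for Tpi1, and none of the 9 was called, where 0% of all genes were called by edgeR, DESeq2 or limma-voom and 118 of 10851 genes (1.09%) had an unadjusted p under 0.05. The log2FC was below 0 for 2 of 9 enzymes and for 47.4% of all genes. The 95% intervals of 8 enzymes stayed between -0.56 and 0.67, and that of Pgam2 ran from -0.77 to 0.80, so changes of moderate size in either direction remain possible. Medians were near each other, as for Eno3 with 6065 CPM in Sed and 6297 in Ex, and for Ldha with 2337 and 2367.

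In CC-Ex against CC-Sed all 9 log2FCs were above 0, from 0.16 for Pfkm to 0.36 for Pgam2, with a median of 0.26, while 47% of all genes were below 0. None was called, where 0% of all genes were called by the same 3 tools and 234 genes (2.16%) had an unadjusted p under 0.05. Pygm had medians of 7298 CPM in CC-Sed and 9835 in CC-Ex and a log2FC of 0.26, with an interval from -0.26 to 0.78. Pgam2 had medians of 983 and 1279 CPM and an interval from -0.43 to 1.14, and Pgk1 had medians of 824 and 815 CPM. The ranges of these groups overlapped for every enzyme. These differences leaned on 1 rat: without CC-Ex replicate 4 the median log2FC of the enzymes was 0.03. The difference between the monocrotaline effects of trained and sedentary rats, tested as an interaction, was called for 0 of 9 enzymes and 0% of genes with edgeR, DESeq2 and limma-voom, with 154 genes (1.42%) at an unadjusted p under 0.05. Its log2 values were below 0 for 49.1% of all genes and ran from 0.07 for Pfkm to 0.34 for Pgam2, whose interval was -0.77 to 1.46, and without CC-Ex replicate 4 their median was -0.03.

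The rats of the monocrotaline groups differed from each other far more than the saline rats did. The SD of log2 CPM of the enzymes ran from 0.16 to 0.26 in Sed and from 0.12 to 0.37 in Ex, against 0.51 to 0.89 in CC-Sed and 0.38 to 1.12 in CC-Ex. For Pgam2 the highest rat had 1.55 times the level of the lowest in Sed and 1.46 times in Ex, but 4.56 times in CC-Sed and 8.98 times in CC-Ex. Tpi1 went from 1.31 and 1.27 times in the saline groups to 2.45 and 3.13 times. Pygm, by contrast, had 1.67 times in Sed and 2.02 times in Ex, against 2.94 and 2.17 times.

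The spread was tested across all genes as the distance of each rat from its group median on the log2 scale, an analysis chosen after the values were seen. All 9 enzymes had the larger mean distance in the CC rats, as did 86.8% of all genes. With limma, 0 of 9 enzymes and 0% of all genes were called, although 8 of the 9 and 1800 of 10851 genes had an unadjusted p under 0.05. The mean distance of Tpi1 was 0.11 in saline and 0.51 in CC rats (adjusted p = 0.0892), and that of Pgk1 0.16 and 0.57 (adjusted p = 0.0892). Pgam2 had the widest distance in CC rats, 0.77 against 0.15 (adjusted p = 0.199). With distances from the group mean in place of the median, 5 of the 9 enzymes and 137 genes were called.

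The low values of the enzymes fell in the same rats. CC-Sed replicates 1 and 6 had all 9 enzymes below every one of the 12 saline rats. CC-Sed replicate 5, CC-Ex replicate 3 and CC-Ex replicate 5 had 7 of 9 below, and CC-Ex replicate 2 had 6. At the other end, CC-Ex replicate 4 had all 9 enzymes above every saline rat, and CC-Sed replicate 2 had 3 above. For comparison, 25.6% of all genes were below every saline rat in CC-Sed replicate 1 and 25.7% in replicate 6, and 9.89% were above in CC-Ex replicate 4. CC-Ex replicate 5 stood apart across the transcriptome, with 34.7% of genes below and 36.8% above all saline rats. Of the 12 CC rats, CC-Sed replicates 3 and 4 and CC-Ex replicates 1 and 6 had at most 1 enzyme outside the saline range on either side, so both CC groups held rats within the saline range for these enzymes.

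As a share of all counts, the 9 enzymes made up from 3.83% to 4.98% in Sed, with a median of 4.16%, and from 3.11% to 5.11% in Ex, with a median of 4.37%. In CC-Sed the share ran from 2.38% to 5.27%, with a median of 3.10%, and in CC-Ex from 3.16% to 5.75%, with a median of 3.89%. The lowest saline share, in Ex replicate 4, was above that of 3 CC-Sed rats and below that of every CC-Ex rat.

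Within groups, the enzymes followed each other closely. After subtracting group means, Pearson correlations of log2 CPM over the 24 rats ran from 0.60 to 0.97 across the 36 pairs of enzymes, with a median of 0.90. The lowest was between Pygm and Pgam2, whereas Pgam2 and Ldha had 0.96 and Tpi1 and Pgk1 had 0.96. These values are descriptive, since the genes share libraries and scaling factors. Pygm and Pgam2 therefore mark the ends of the set, and their ratio is free of the scaling of the library.

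Pgam2 had from 15.8 to 22.5 counts per 100 Pygm counts in Sed, with a median of 18.9, and from 16.1 to 24.4 in Ex, with a median of 19.5. In CC-Sed the ratio ran from 6.57 to 24.7, with a median of 10.9, and in CC-Ex from 3.28 to 18.8, with a median of 11.1. In CC-Sed 5 of 6 rats were below every saline rat, and in CC-Ex 4 of 6 were. The exception in CC-Sed was replicate 4, at 24.7, the highest of all 24 rats. Since this pair was chosen after its values were seen, no test is given. For Aldoa the median ratios to Pygm lay between 119.5 and 125 counts per 100 in the 4 groups, and for Pfkm they were lowest in Sed at 28.1 and highest in CC-Sed at 33.6, with 30.1 in Ex and 30.3 in CC-Ex. Tpi1, Pgk1, Eno3, Pkm and Ldha had lower median ratios in both CC groups than in both saline groups, as for Pgk1 with 11.3 and 11.4 in the saline groups, Sed and Ex, against 8.41 in CC-Sed and 8.27 in CC-Ex.

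**Figure D3:**
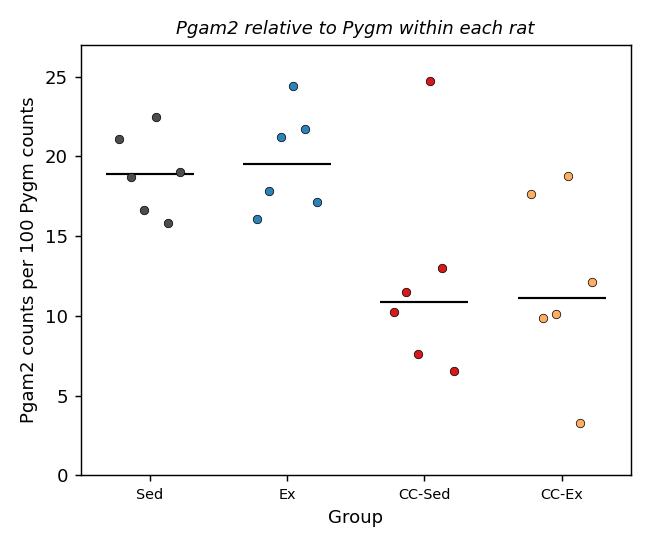
Pgam2 counts per 100 Pygm counts in each rat, by group, on a linear axis from 0, with bars at the group medians (18.9, 19.5, 10.9 and 11.1). All 12 saline rats lie at 15.8 or above, and 9 of the 12 CC rats lie below them.

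Fast fibres hold much glycogen and glycolytic enzyme, and slow fibres rely on oxidation, so fibre markers were set beside the enzymes. Of 12 fast markers 11 were in the table, including the myosin Myh4 and the troponin Tnni2, and none was called in any comparison. Among all genes 6.46% were called in CC-Sed against Sed, 0.995% in CC-Ex against Ex and 27.8% in the mean effect. In CC-Sed against Sed 10 of the 11 had a log2FC below 0, as did 47.5% of all genes. The median log2FC of the 11 was -0.41, and 4 of them had an unadjusted p under 0.05, as did 28.4% of all genes. The summed level of the 11 ran from 130361 to 205527 CPM in Sed, with a median of 165244, and from 78265 to 200854 in CC-Sed, with a median of 110010. In Ex it ran from 104801 to 210061 CPM, with a median of 168053, and in CC-Ex from 119182 to 233145, with a median of 155961. Over the 24 rats, after subtracting group means, the mean log2 CPM of the enzymes had a Pearson correlation of 0.95 with the mean log2 CPM of the fast markers, and single enzymes from 0.82 for Pgam2 to 0.94 for Eno3. CC-Ex replicate 5, with 7 enzymes below all saline rats, had a summed level of 168077 CPM, near the saline medians. Its Tnni2, at 3807 CPM, was below the lowest saline rat at 4910 CPM, but the fast markers differed in this. Of the 6 CC-Ex rats, 3 were below all Ex rats for Tnni2, Tnnc2, Myl1 and Myl11. For Myh4, Actn3 and Atp2a1 0 were, and the other fast markers lay between.

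Of 9 slow markers 6 were in the table, and the slow myosin Myh7 was not among them. None was called here, where 6.46% of all genes were called in CC-Sed against Sed and 27.8% in the mean effect. Yet all 6 had a log2FC above 0 in CC-Sed against Sed, from 1.13 to 2.01, where 47.5% of all genes were below 0. In CC-Ex against Ex 4 of the 6 were above 0 and 2 below, where 48.4% of all genes were below 0. The study, which used DESeq2, listed Tnnc1, Tpm3, Tnni1 and Myl3 among its most upregulated DEGs in CC-Sed, with larger log2FCs. For these genes its calls and those made here differ. The summed medians of the 6 were 2083 CPM in Sed and 3712 in Ex, against 6344 in CC-Sed and 5468 in CC-Ex, within ranges of 687 to 11914 over all rats. The correlation with the slow markers, taken the same way, was -0.32 for the mean of the enzymes, -0.60 for Pygm and -0.04 for Pgam2. With the slow markers as a covariate the median log2FC of the enzymes went from -0.49 to -0.36 in CC-Sed against Sed, from -0.29 to -0.34 in CC-Ex against Ex and from -0.39 to -0.38 in the mean effect, where Pgam2 was called (log2FC -0.71, adjusted p = 0.0455). The fast markers were not used as a covariate. All 6 markers of striated muscle were present and none was called, where 27.8% of all genes were called in the mean effect. The part of fibre type in the enzymes' levels was not tested.

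**Figure D4:**
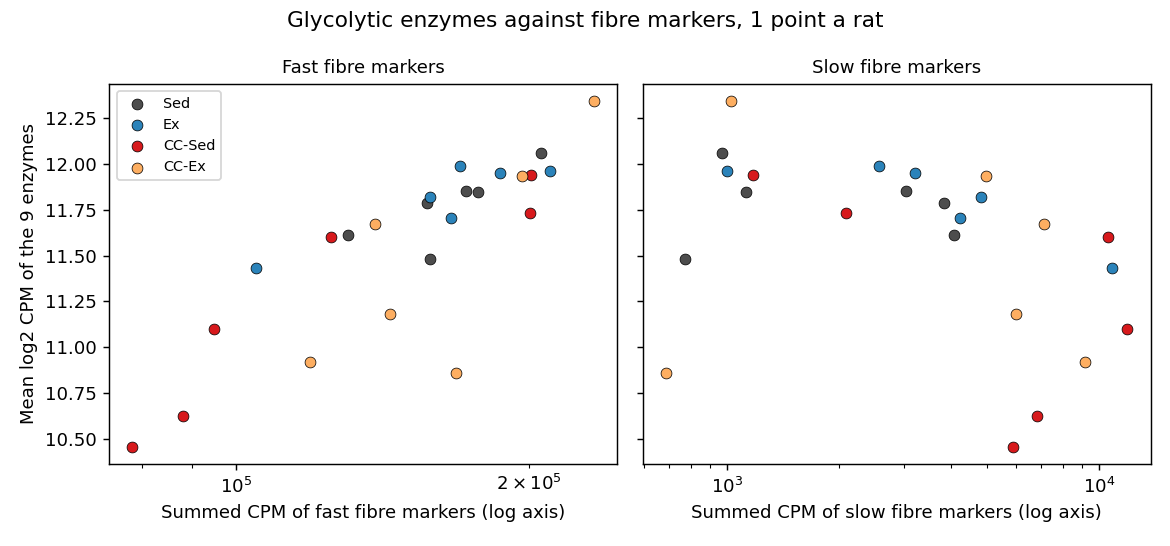
Mean log2 CPM of the 9 enzymes (vertical) against the summed CPM of 11 fast markers (left) and 6 slow markers (right), both on log axes, with 1 point a rat coloured by group. The enzymes rise with the fast markers (Pearson 0.95 between mean log2 CPM values after subtracting group means, n = 24 rats, with both values of a rat from 1 library), and the value for the slow markers was -0.32.

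Among 10842 other genes, the 10 most like the mean of the enzymes over the 24 rats, after subtracting group means, were Gpi, LOC100362738, Sh3bgr, Grhpr, RGD1563601, Tnni2, Glo1, Casq1, Ubac1 and Pgm1. Their Pearson correlations ran from 0.951 to 0.965. Gpi, glucose phosphate isomerase, is the step before Pfkm, Pgm1 links glycogen breakdown to glycolysis, Tnni2 is the fast troponin and Casq1 the fast form of calsequestrin. Gpi had medians of 1116 CPM in Sed and 1156 in Ex, against 755 in CC-Sed and 770 in CC-Ex, and a mean monocrotaline effect of -0.49 (adjusted p = 0.0557), next to that of Pgk1. Casq1 had -0.79 and was called in the mean effect (adjusted p = 0.0199). With Spearman correlations 6 of the 10 remained, and 8 remained without subtracting group means.

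The rest of the pathway was covered by 7 lists of 77 genes, of which 70 were in the table. In CC-Sed against Sed 6 of 70 (8.57%) were called, 5 higher and 1 lower, beside 6.46% of all genes. In CC-Ex against Ex 2 of 70 (2.86%) were called, both higher, beside 0.995% of all genes. In the mean effect 14 of 70 (20%) were called, 12 higher and 2 lower, beside 27.8% of all genes. None was called in the training comparisons or the interaction. The share called was below that of all genes in the mean effect and above it in the other comparisons with calls. Those comparisons rest on 6 and 2 called genes, and the difference in shares was not tested.

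Among the isozymes typical of other tissues, a few were higher in the CC rats. Pfkl, the liver form of phosphofructokinase, lay between 5.28 and 8.82 CPM in Sed and between 11.8 and 16.2 in CC-Sed, so the groups did not overlap (log2FC 1.00 ± 0.16, adjusted p = 0.00286). In CC-Ex it ran from 6.17 to 13.5 CPM against 5.55 to 7.79 in Ex (log2FC 0.78, adjusted p = 0.0325), and this call held in 16 of 24 fits that each left out a rat. Aldoc, the brain form of aldolase, lay between 0.786 and 1.41 CPM in Sed and between 1.81 and 5.45 in CC-Sed (log2FC 1.80 ± 0.29, adjusted p = 0.00286), and was not called in CC-Ex against Ex (log2FC 1.00, adjusted p = 0.0716). Pfkp, the platelet form, was called in the mean effect alone (log2FC 0.57, adjusted p = 0.0396, and held in 10 of 24 fits without a rat). Beside these stand -0.03 for Pfkm and -0.07 for Aldoa in the mean effect, with 0.89 for Pfkl and 1.40 for Aldoc. Of the 13 other isozymes in the table, 3 were called in the mean effect, all higher, beside 27.8% of all genes. Pgam1, Eno1 and Ldhb, the counterparts of Pgam2, Eno3 and Ldha, had log2FCs of 0.18, -0.04 and 0.86 there and were not called. The study listed Ldhb among its DEGs of CC-Sed against Sed, where it had a log2FC of 1.40 here (adjusted p = 0.345).

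Some markers of other cells were also called in the mean effect, where 27.8% of all genes were. Higher were 2 of 4 endothelial markers, Vwf (log2FC 1.26) and Kdr (0.60). The other 2, Cdh5 and Tek, had log2FCs below 0, the lower at -0.20, and were not called. Also higher were 2 of 3 erythroid markers, Hbb (1.11) and Hba-a1 (1.06). Lower were 2 of 4 fibroblast markers, Col1a1 (-1.64) and Col3a1 (-1.46), and 1 of 2 adipocyte markers, Adipoq (-1.09). None of 5 macrophage and leukocyte markers or of 2 Schwann cell markers was called. The summed endothelial level lay between 132 and 217 CPM in Sed and between 167 and 250 in CC-Sed, and in CC-Ex from 151 to 261 against 147 to 207 in Ex. The part of these cells in the levels of Pfkl and Aldoc was not tested.

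Of the 12 genes of glycogen synthesis and its control, 3 were called higher and 1 lower in the mean effect, where 27.8% of all genes were called. Ppp1r3c, a subunit that brings a phosphatase to glycogen and favours its storage, had medians of 417 CPM in Sed and 793 in CC-Sed (log2FC 0.95, adjusted p = 0.0478) and a mean effect of 0.92 ± 0.20 (adjusted p = 0.00312). In CC-Sed against Sed this call held in 7 of 24 fits that each left out a rat, and in the mean effect in 24 of 24. Of the 12 synthesis genes, Gyg1, the glycogenin primer, rose in the mean effect by a log2FC of 0.23, and Ppp1r3a, a related subunit, by 0.29 (adjusted p = 0.0127 and 0.0380). The call held in 24 of 24 fits without a rat for Gyg1 and in 11 of 24 for Ppp1r3a. Stbd1, a glycogen-binding protein, was lower by -0.58 (adjusted p = 0.0110). Of the 10 other genes of glycogen breakdown only Gaa, the lysosomal glucosidase, was called in the mean effect (log2FC 0.64, adjusted p = 0.0142), beside the same 27.8%. The phosphorylase kinase subunits Phka1 and Phkg1 had mean effects of -0.63 and -0.55 and were not called.

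Among genes that control phosphofructokinase, Tigar, a phosphatase of the sugar bisphosphates, lay between 36.9 and 48.7 CPM in Sed and between 14.9 and 36.8 in CC-Sed, and the groups did not overlap (log2FC -0.92 ± 0.21, adjusted p = 0.0164). In CC-Ex 5 of 6 rats were below all Ex rats, but the difference was not called (log2FC -0.62, adjusted p = 0.109). Pfkfb3, which makes an activator of phosphofructokinase, was higher in the mean effect (log2FC 1.83 ± 0.53, adjusted p = 0.0160), with CC-Ex rats from 46.4 to 999 CPM. Of the 12 genes of lactate transport and NADH shuttles, Gpd1l, a relative of glycerol phosphate dehydrogenase, rose in CC-Sed (log2FC 0.60, adjusted p = 0.0274) and in the mean effect (0.44). The lactate carriers Slc16a3 and Slc16a1 had mean effects of -0.51 and 0.26 and were not called.

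Egln3, a prolyl hydroxylase that marks hypoxia inducible factors for loss, lay between 97.9 and 166 CPM in Sed and between 173 and 383 in CC-Sed, with no overlap (log2FC 1.11, adjusted p = 0.0446, called in 6 of 24 fits that each left out a rat). In CC-Ex its log2FC was 1.69 (adjusted p = 0.0325), and 1.19 (adjusted p = 0.0557) without CC-Ex replicate 5, the highest rat at 723 CPM. Myc and Ampd3, an AMP deaminase, were called in the mean effect, with log2FCs of 2.52 ± 0.55 and 3.05 ± 0.74, and with 1.64 and 2.09 without the same rat. The highest values of both genes lay in CC-Sed replicates 1 and 6 and CC-Ex replicate 5, where 9, 9 and 7 of the enzymes were below all saline rats. In these rats Ampd3 had 370, 443 and 481 CPM, against 2.42 to 66.8 CPM in the other CC rats. Myc had 25.9, 38.9 and 111 CPM in them, but also 25.2 CPM in CC-Sed replicate 3, where 1 enzyme was below and 1 above all saline rats. CC-Sed replicate 5 and CC-Ex replicate 3 also had 7 enzymes below all saline rats, but 50.9 and 66.8 CPM of Ampd3. In CC-Sed replicates 1 and 6 and CC-Ex replicate 5, 25.6%, 25.7% and 34.7% of all genes were below every saline rat. In the other CC rats 8.96% to 23.6% were. The relation of Myc and Ampd3 to the enzymes was not tested. Hif1a itself had a mean effect of 0.11 and was not called.

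**Figure D5:**
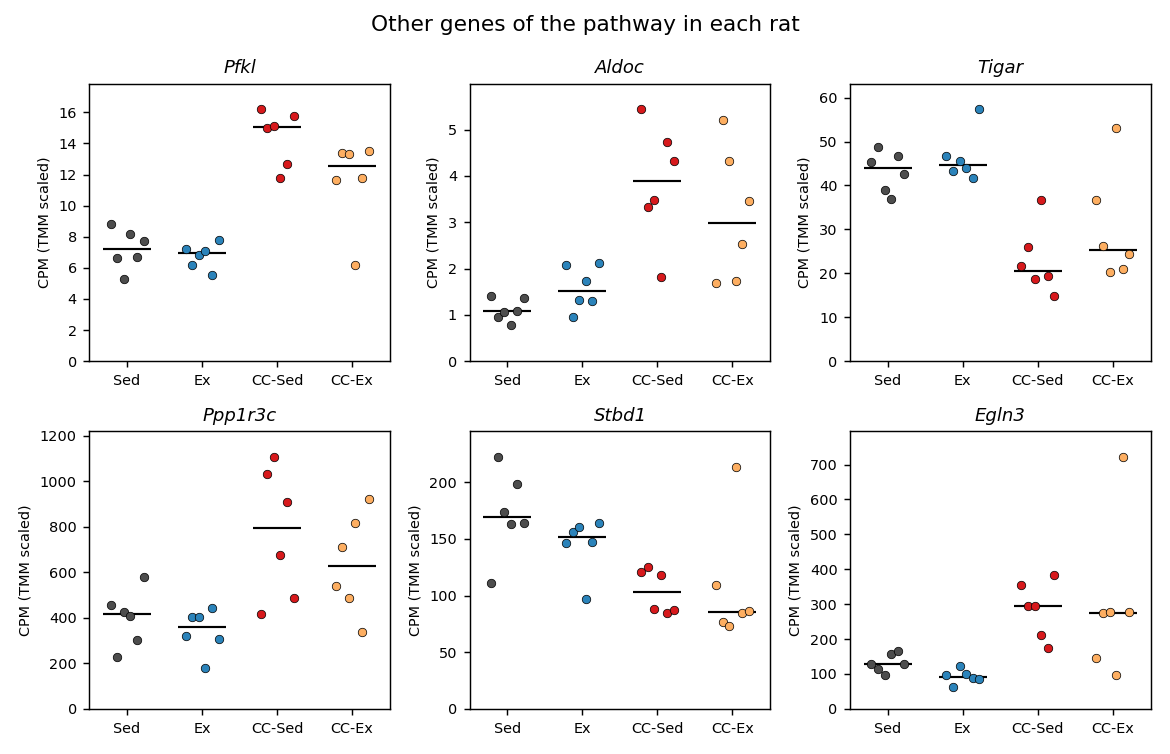
Level of 6 other genes of the pathway in each rat, in CPM after TMM scaling on linear axes from 0, by group, with bars at the medians. Pfkl, Aldoc and Egln3 lie above, and Tigar lies below, all Sed rats in every CC-Sed rat, whereas single CC-Ex rats, such as that at 6.17 CPM for Pfkl, lie among the Ex rats.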

How the data were processed

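RNA of the medial gastrocnemius was measured in 24 rats of 4 groups taken from the labels. The authors trimmed reads with Trim Galore, quantified them with Salmon against the Ensembl transcriptome of build mRatBN7.2 and summed transcripts to genes, and the table they deposited holds these estimated counts as whole numbers per gene and rat, without normalization. They tested with DESeq2 1.44.0. The lowest value in the table is 10, so genes of low counts had already been left out. Totals of 37816239 to 50350554 counts give small counting error for these enzymes, and the spread between rats limits precision.

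Counts were scaled by TMM and tested by quasi-likelihood in edgeR 4.0.16 under R 4.3.3, with 1 mean per group and Benjamini-Hochberg adjustment over 10851 genes. The filterByExpr filter removed no gene. Log2 CPM used a prior count of 2. DEGs in the study also needed a log2FC of at least 1 in size, and no enzyme met that rule with edgeR. Alternatives were DESeq2 1.42.0, limma-voom (limma 3.58.1), other scalings and filters, a replicate block, covariates and each rat left out. CC-Sed against Sed and CC-Ex against Ex, the study's comparisons, share no rats, but the other comparisons made here reuse their rats. The enzymes and lists were chosen with earlier results of these data known. The genes named are the enzymes, the other isozymes of a list, up to 5 genes per list called in any comparison by smallest p, and the 10 genes most like the enzymes. Names outside this rule were chosen after their values were seen.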

Additional observations from a re-analysis of the deposited data

Results flagged for a closer look

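Each of 108 sets of 6 rats was checked for a rat far from the other 5, and 11 held one, where chance alone gives about 1 in 20. None of the 36 sets of the enzymes themselves did. CC-Sed replicate 4 had 24.7 Pgam2 counts per 100 Pygm counts, against at most 13.0 in the other 5 rats of its group.

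CC-Ex replicate 5 was far above the rest of its group in 4 genes, with 433 CPM for Gaa (the next rat had 208), 481 CPM for Ampd3 (66.8), 723 CPM for Egln3 (278) and 111 CPM for Myc (13.0). CC-Ex replicate 4, the rat with all 9 enzymes above the saline rats, was low for Pfkl, with 6.17 CPM against 11.7 in the next rat, and high for Stbd1, with 213 CPM against 109. In the saline groups, Gaa was at 205 CPM in Sed replicate 5 and Stbd1 at 96.7 CPM in Ex replicate 4. Pfkfb3 was at 303 CPM in Ex replicate 2, and Tigar at 57.5 CPM in Ex replicate 6.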

How the results depend on the processing

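The number of enzymes called was 0 in every comparison with edgeR's quasi-likelihood test, and it stayed 0 in Ex against Sed, CC-Ex against Ex, CC-Ex against CC-Sed and the interaction under every alternative run. In CC-Sed against Sed it was 1 with limma-voom and 0 under the others. In the mean monocrotaline effect it was 2 with DESeq2, 6 with limma-voom, 1 with upper-quartile factors, 3 with total counts only, 1 with a mean of at least 100 counts and 1 with the slow markers as a covariate, and from 0 to 6 with each rat left out. For the spread between rats it was 5 with distances from the group mean. No enzyme's direction turned where it was called.

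The median log2FC of the enzymes, over all alternatives, ran from -0.59 to -0.36 in CC-Sed against Sed, from -0.53 to -0.14 in CC-Ex against Ex and from -0.51 to -0.33 in the mean effect. The counts over all genes moved more. Against 701 genes called in CC-Sed against Sed, DESeq2 called 1331, limma-voom 2474, total counts only 450 and the fit with slow markers 1446, and leaving out a rat gave 173 to 2096. Against 108 in CC-Ex against Ex, these gave 685, 1043, 53 and 159, and 2 to 847. Upper-quartile factors gave 23, the library number as a covariate 42, and the fit on only the 12 rats of the comparison 1. A fit on only 12 rats gives no value for the mean effect or the interaction.

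With the replicate number as a block, 1 enzyme, Pgam2, was called in the mean effect (log2FC -0.84, adjusted p = 0.0336), and 553 genes in CC-Sed against Sed and 1 in CC-Ex against Ex. The labels do not say that the numbers pair the rats. Correlations of same-numbered rats ran from -0.50 to 0.36 in the first comparison and from -0.42 to 0.15 in the second. With 6 such pairs in each comparison, these values cannot show whether any pairing existed. No pair of rats of a group agreed within sampling noise.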
